A study of Mus musculus with 24 samples.

Results

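The response of the distal jejunum to oral succinate was followed in wild-type (WT) mice in 6 of the 24 bulk RNA sequencing libraries of the series, the F columns of the gene count matrix. They were chosen by their column names, F_WT_c1 to F_WT_c3 for the controls and F_WT_S1 to F_WT_S3 for the treated mice, and the sample titles give these as female. The series as a whole crosses sex, Ptk6 genotype and succinate, with 3 libraries in each group. WT females on regular water (controls 1 to 3) were compared with WT females that drank water with 100 mM succinate for 7 days (succinate 1 to 3). The mice were 9 to 11 weeks old at the end, age matched, and came from different litters of a single colony on the C57BL/6 background, and their Ptk6 gene was intact. Titles number the libraries as biological replicates, so the p-values measure the spread between these samples. Of 56691 gene rows, 18872 reached 10 counts in 3 or more of these libraries and were tested, while 37819 did not.

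Succinate is a dicarboxylate of the citric acid cycle that protists and bacteria release into the gut lumen. Tuft cells, rare chemosensory cells of the epithelium, sense it through the receptor SUCNR1 and the cation channel TRPM5, and answer with the cytokine IL-25 and with leukotrienes. IL-25 acts on group 2 innate lymphoid cells, whose IL-13 in turn signals through STAT6 to epithelial progenitors, so that more tuft and goblet cells are made. This circuit is called type 2 immunity, and helminths set it off as well.

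Succinate 2 and, at a far lower level, succinate 3 carried transcripts of other tissues. In the library labelled WT female succinate 2, 20 cardiac muscle genes summed to 24230 CPM (counts scaled to a common library size), against 62.5 to 128.5 CPM in the other libraries, and mitochondrial genes held 13.6% of its counts against 2.19% to 3.91%. The Y-linked genes Ddx3y and Eif2s3y had 772 and 935 counts there, although the title gives a female, and Xist had 2438 counts against 4532 to 5636 elsewhere. Many of the values below are therefore also given without succinate 2. Succinate 3 held lung transcripts, with 404 counts of Scgb1a1, 106 of Sftpc, 17 of Scgb3a2 and 9 of Sftpd. Each of these genes had 0 counts in every other library. The lung marker Ager did not set succinate 3 apart, with 103 to 134 counts across the libraries. The part of the lung transcripts in the results was not tested. Total counts lay between 34663680 and 49672583 per library. Other measures moved with treatment, and their part in the results was not tested. 18S ribosomal RNA took 0.161%, 0.215% and 0.170% of counts in the controls and 0.981%, 3.52% and 3.80% after succinate, and visceral smooth muscle markers summed to 3919, 4132 and 3489 CPM in the controls and 7578, 7011 and 4556 CPM after succinate. The 10 jejunal enterocyte markers, which check the labelled tissue, were all present, and summed to 27889, 26035 and 32570.0 CPM in the controls and 14641, 8873 and 24471 CPM after succinate. Succinate 3 thus lay near the controls in its enterocyte genes, while succinate 1 and 2 were lower.

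**Figure D1:**
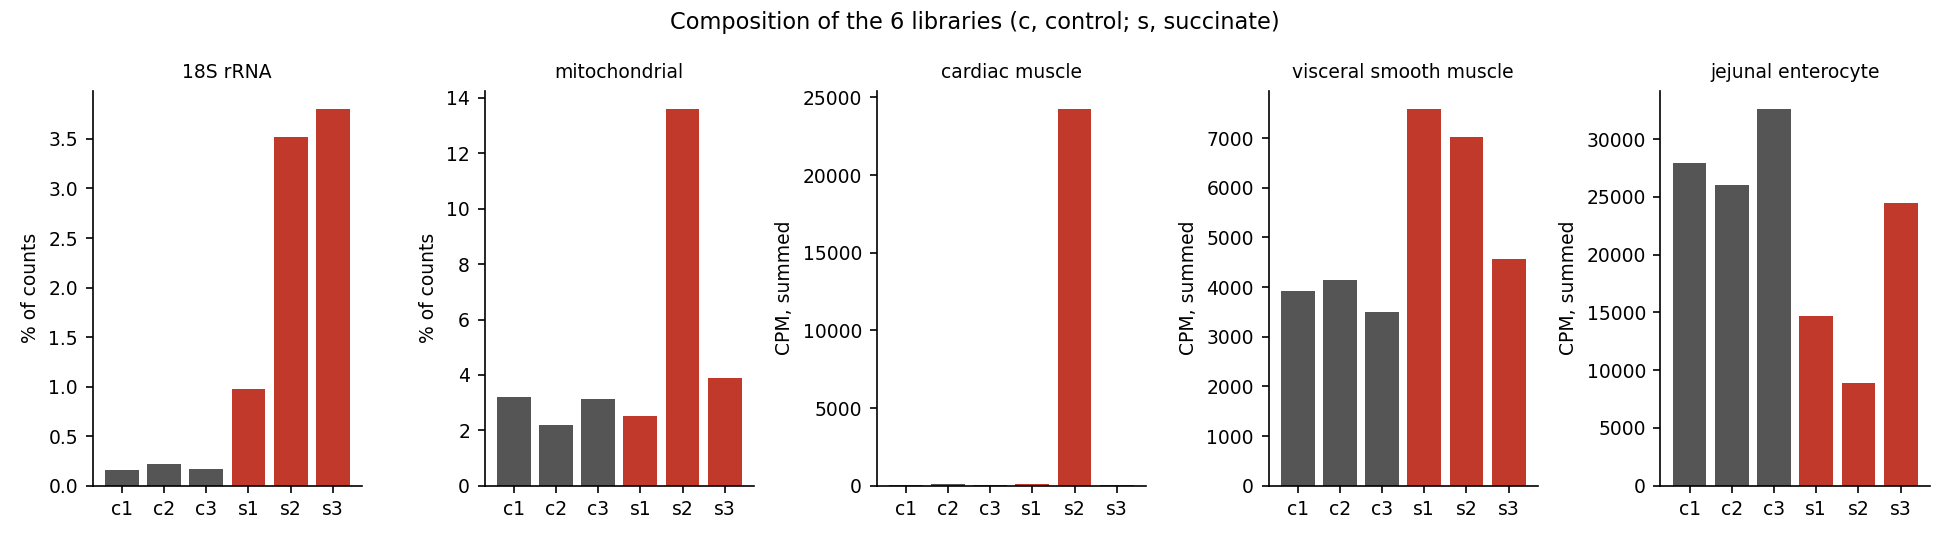
Composition of the 6 libraries, with controls and succinate libraries side by side. The bars give the percentage of counts from 18S ribosomal RNA and from mitochondrial genes, and the summed CPM of cardiac, smooth muscle and enterocyte marker lists. Succinate 2 stands alone for cardiac genes at 24230 CPM and for mitochondrial genes at 13.6%, and 18S RNA is above every control in all 3 succinate libraries.

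Tuft cell genes, the leukotriene enzymes that tuft cells carry, Gsdmc gasdermins, Sprr2a genes and several secretory cell products had higher means after succinate, while Reg3 lectins, T cell and intraepithelial lymphocyte genes and most absorptive enterocyte genes had lower means. With 3 mice a group, edgeR's quasi-likelihood test called none of the 18872 genes at an adjusted p under 0.05 and a fold change of at least 2, and the smallest adjusted p was 0.114, for Pla2g4c. At an unadjusted p under 0.05 it found 1466 genes (7.77%), of which 996 were higher (5.28%) and 470 lower (2.49%). DESeq2 called 258 genes (1.37%), 211 higher (1.12%) and 47 lower (0.249%), and limma's voom with quality weights called 37 (0.196%). Without succinate 2, edgeR again called 0 of 18505 genes, with 802 at an unadjusted p under 0.05 (4.33%; 2.75% higher and 1.58% lower), and DESeq2 called 135 (0.73%), with 0.578% higher and 0.151% lower. Of DESeq2's 258 genes, 237 could be tested without succinate 2, all 237 kept their direction, and 123 were called in both fits. The edgeR count depended on succinate 3. When that library was left out, edgeR called 597 genes (3.23%), 280 higher (1.51%) and 317 lower (1.71%), and DESeq2 2137 (11.6%). Succinate 3 was the treated library nearest to the controls in its tuft and enterocyte genes, so these counts are a description only. The libraries of control and treated mice did not overlap for 1209 genes that were higher (6.41%) and 1256 that were lower (6.66%).

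**Figure D2:**
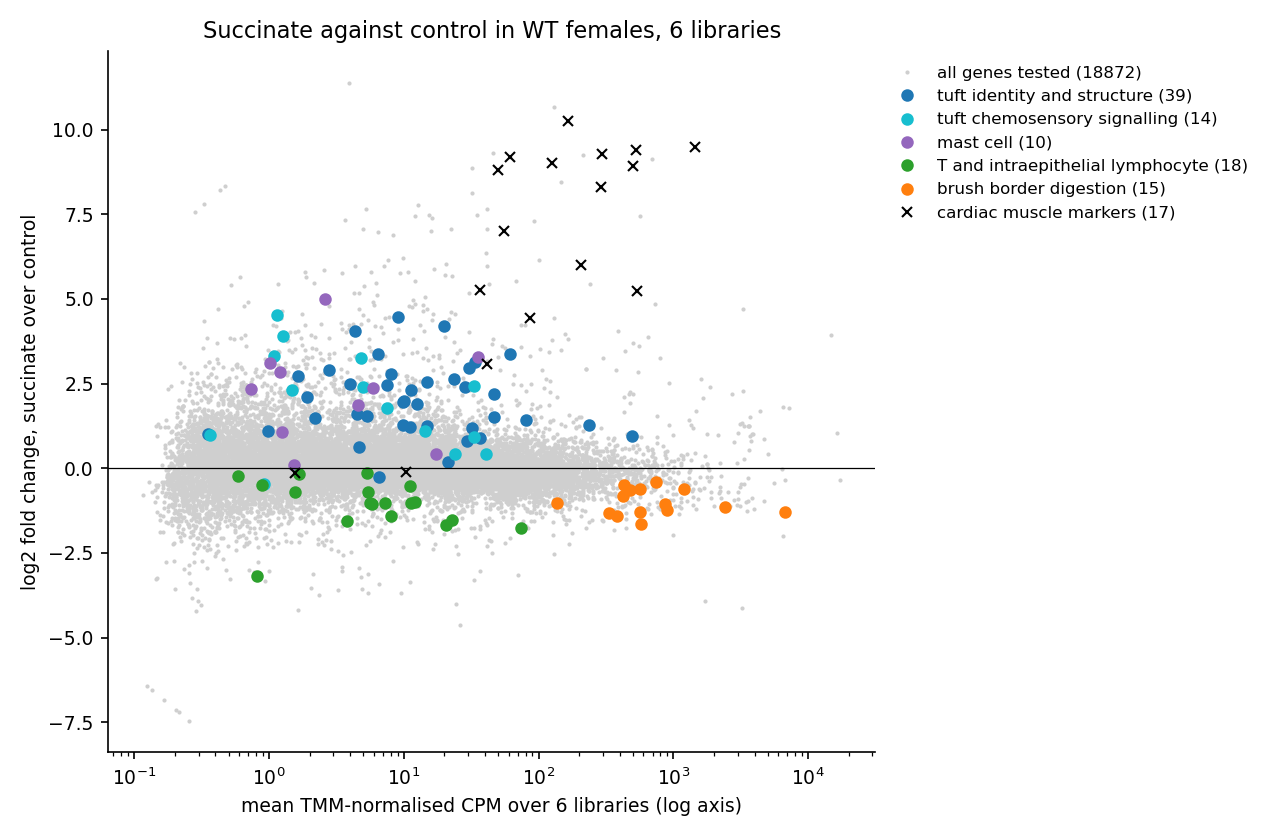
The log2 fold change of every tested gene, succinate over control, against its mean CPM over the 6 libraries on a log axis. Colours mark the lists of tuft identity, tuft chemosensing, mast cell, T cell and intraepithelial lymphocyte, and brush border genes, and crosses mark cardiac muscle markers. Among genes without a label in the plot, Pla2g4c is at 7.45 and Reg3b at -4.13, while the median over all genes is 0.03.

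Pla2g4c, which encodes a cytosolic phospholipase A2 able to free arachidonic acid from membranes, differed most by p-value. It stood at 9.78, 4.38 and 5.11 CPM in the controls and 1729, 1122 and 512 CPM after succinate, and the lowest treated mouse was far above the highest control. The log2 fold change was 7.45 ± 0.69 (edgeR, adjusted p = 0.114, DESeq2 adjusted p = 3.61e-43), and 7.45 without succinate 2. Me1, the cytosolic malic enzyme that makes NADPH from malate, was the next gene by p-value. It measured 18.5, 13.03 and 29.1 CPM in the controls and 266, 200.04 and 194 CPM after succinate, the 3 treated mice lay close together, and the log2 fold change was 3.44 ± 0.38 (edgeR, adjusted p = 0.177, DESeq2 adjusted p = 2.70e-15). Cd55, which restrains complement on cell surfaces, was at 45.3, 24.1 and 35.5 CPM in the controls and 245, 189.7 and 189.9 CPM after succinate, again with no overlap (log2 fold change 2.57 ± 0.32, DESeq2 adjusted p = 9.17e-11). Rsad1, a radical S-adenosylmethionine domain gene, differed by 2.42 ± 0.30 (log2), and Capn13, a calpain protease, by 3.95 ± 0.57 (log2, DESeq2 adjusted p = 4.05e-11). All 5 passed DESeq2 with and without succinate 2. Cyp1a1, a target of the aryl hydrocarbon receptor, was low throughout at 0.443, 0.317 and 0.278 CPM in the controls and 2.74, 3.67 and 1.97 CPM after succinate, with a log2 fold change of 3.003 ± 0.46 (DESeq2 adjusted p = 6.86e-06).

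**Figure D3:**
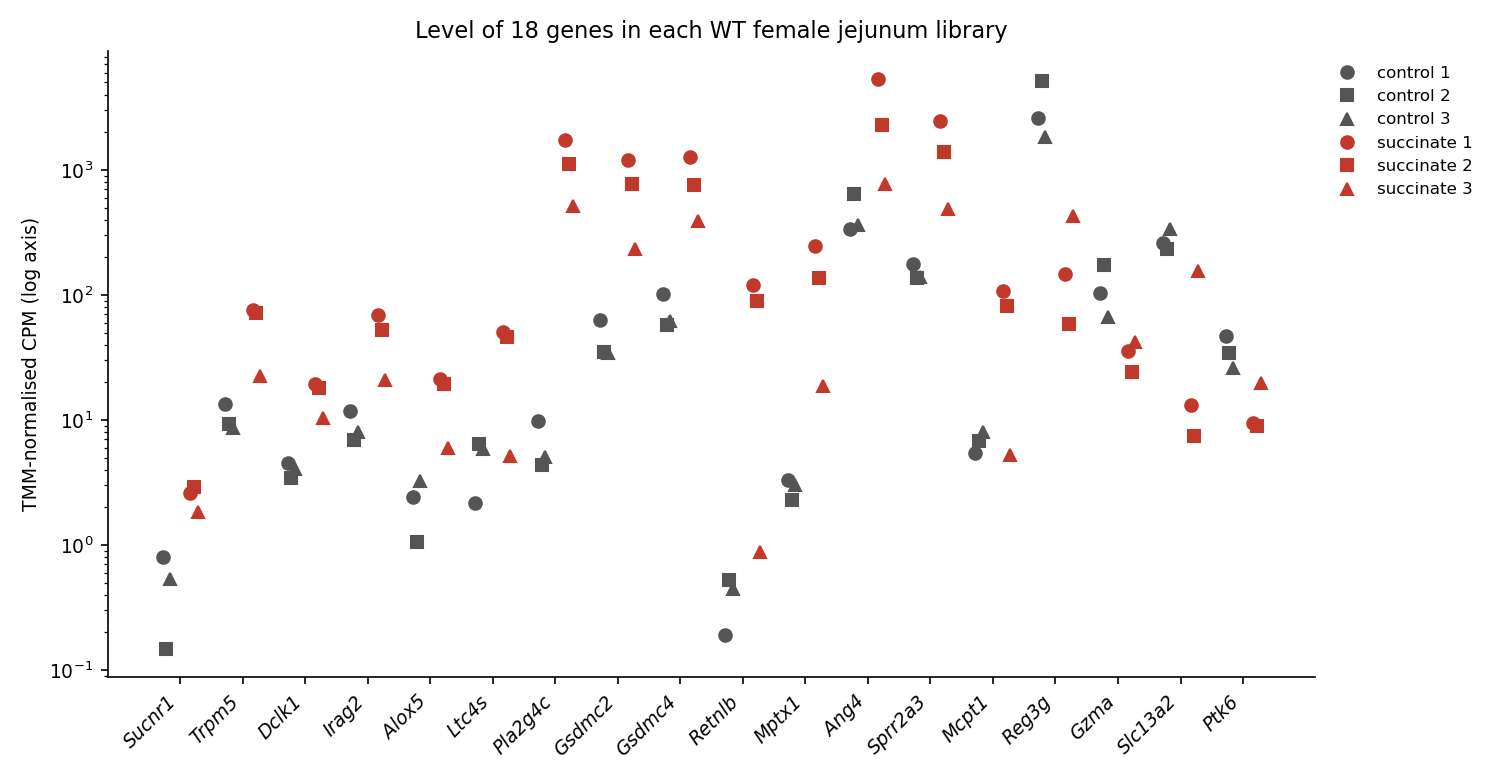
Level of 18 genes in each of the 6 libraries, in CPM on a log axis, with controls and succinate libraries in separate colours. Tuft, gasdermin and secretory genes are higher in the treated mice, with succinate 3 the lowest of them for Pla2g4c, Trpm5, Gsdmc2, Retnlb and Mptx1, and Reg3g, Gzma, Slc13a2 and Ptk6 are lower. For Ltc4s succinate 3 is within the control range, and for Mcpt1 it is under every control.

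Genes of tuft cell chemosensing were higher in the treated mice. Of 15 genes on this list, 14 were tested, 13 had a higher mean, and 10 did not overlap between the groups (6.41% of all genes did so in this direction). An unadjusted edgeR p under 0.05 was reached by 9 (5.28% of all genes), and 7 passed DESeq2 (1.12%), 4 of them also without succinate 2 (0.578%). The median log2 fold change over the 14 was 2.05, against 0.03 over all genes, and 1.24 without succinate 2. In bulk tissue more cells of a type and more RNA per cell cannot be told apart. Sucnr1, the succinate receptor, was scarce, at 0.801, 0.148 and 0.534 CPM in the controls and 2.63, 2.89 and 1.85 CPM after succinate, and each treated mouse exceeded each control. Its log2 fold change was 2.30 ± 0.63 (DESeq2 adjusted p = 0.0418, and 0.271 without succinate 2). Downstream of the receptors, the phospholipase Plcb2 stood at 3.44, 3.30 and 3.42 CPM in the controls and 14.4, 13.5 and 7.21 CPM after succinate (log2 fold change 1.79 ± 0.34, DESeq2 adjusted p = 6.77e-04). Trpm5, the channel that this signal opens, was at 13.3, 9.24 and 8.59 CPM in the controls and 75.1, 71.6 and 22.3 CPM after succinate. Succinate 3 was again the nearest to the controls for Trpm5, whose log2 fold change was 2.44 ± 0.48 (DESeq2 adjusted p = 1.96e-04). Rgs13, a regulator of G protein signalling, differed by 2.40 ± 0.49 (log2). Ffar3, a receptor for short-chain fatty acids, differed by 3.25 ± 0.74 (log2), with 15.7, 7.94 and 2.43 CPM in the treated mice, and passed DESeq2 with and without succinate 2. Gng13, a G protein gamma subunit of taste and tuft cells, was at 1.93, 3.86 and 0.152 CPM after succinate, so that succinate 3 was below all controls (0.232, 0.190 and 0.171 CPM), and its DESeq2 call (adjusted p = 0.0470) rested on succinate 1 and 2. Without succinate 2 the gene was under the count minimum.

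Another list held 40 genes of tuft cell identity and structure, of which 39 were tested. Of these 38 had a higher mean after succinate, 31 reached an unadjusted edgeR p under 0.05 (5.28% of all genes), 29 did not overlap (6.41%) and 20 passed DESeq2 (1.12%), 15 of them also without succinate 2 (0.578%). Over the 6 libraries edgeR called none of them, and without succinate 3 it called 25 of 38, all higher (1.51% of all genes). Succinate 3 lay nearest to the controls for these genes, so the second count is a description only. The median log2 fold change was 1.97, and 1.72 without succinate 2. By library, the median difference from the control mean was 2.21 and 2.15 in succinate 1 and 2 but 0.87 in succinate 3. Dclk1, a kinase used to stain tuft cells, stood at 4.55, 3.43 and 4.04 CPM in the controls and 19.4, 17.98 and 10.3 CPM after succinate, without overlap (log2 fold change 1.99 ± 0.33, edgeR adjusted p = 0.218, DESeq2 adjusted p = 4.35e-05). Pou2f3, the transcription factor that tuft cells require, was at 2.02, 0.296 and 1.26 CPM in the controls and 9.12, 7.56 and 3.62 CPM after succinate (DESeq2 adjusted p = 0.0219, and 0.177 without succinate 2). The actin binding protein gene Avil was at 7.86, 5.14 and 6.71 CPM in the controls and 56.5, 47.9 and 18.2 CPM after succinate. Irag2, also known as Lrmp, was at 11.8, 6.89 and 8.05 CPM in the controls and 68.9, 52.5 and 21.04 CPM after succinate. Both passed DESeq2 in both fits, with log2 fold changes of 2.64 ± 0.45 and 2.41 ± 0.46. Siglecf, a lectin of tuft cells and eosinophils, Sh2d6 and Sh2d7, adaptors with an SH2 domain, and the glycogen phosphorylase gene Pygl had log2 fold changes of 2.78, 3.15, 2.47 and 1.88. Among these genes Nebl and Smpx, which heart muscle also uses, depended on succinate 2: their log2 fold changes of 4.48 and 4.20 became 1.93 and 0.79 without it, and the DESeq2 adjusted p of Nebl went from 3.70e-04 to 0.149.

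**Figure D4:**
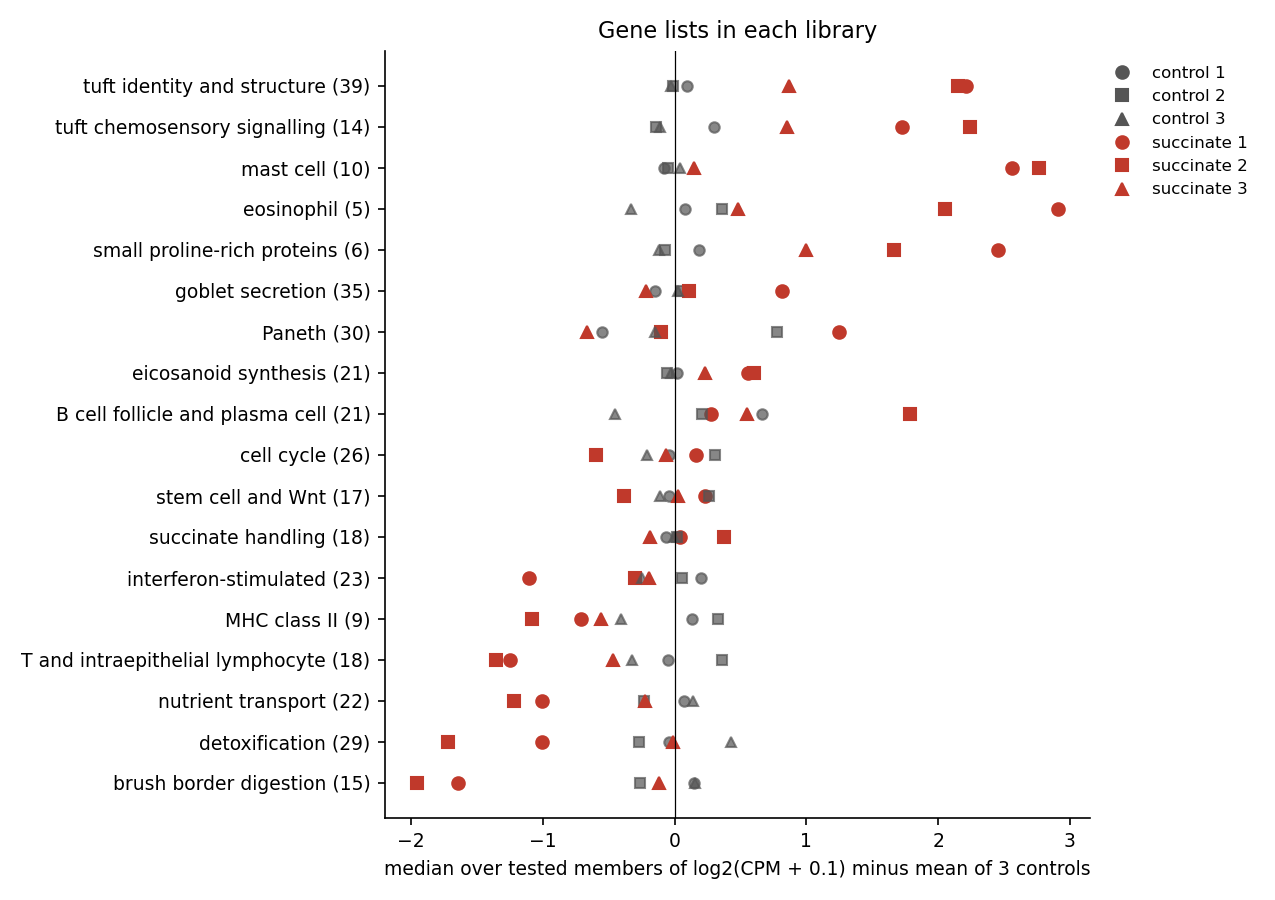
Median difference from the control mean, in log2(CPM + 0.1), for 18 gene lists in each of the 6 libraries. Tuft, mast cell and eosinophil lists are above 0 in succinate 1 and 2 and nearer 0 in succinate 3, where tuft identity is at 0.87 and mast cell at 0.15, and the brush border and the T cell and intraepithelial lymphocyte lists are below 0.

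Within the eicosanoid pathway, enzymes of leukotriene synthesis had higher means after succinate. Over the 21 genes tested of this list the median log2 fold change was 0.40 (0.51 without succinate 2). At an unadjusted edgeR p under 0.05, 5 genes were higher (5.28% of all genes) and 2 lower (2.49%). DESeq2 called 4, all higher (1.12% of all genes), among them Pla2g4c, with 3 also without succinate 2 (0.578%). Alox5, the lipoxygenase that opens the leukotriene branch, stood at 2.42, 1.06 and 3.25 CPM in the controls and 21.2, 19.3 and 5.94 CPM after succinate (log2 fold change 2.79 ± 0.60, DESeq2 adjusted p = 5.07e-04). Its activating partner Alox5ap was at 4.07, 3.93 and 3.55 CPM in the controls and 39.4, 41.3 and 6.19 CPM after succinate (log2 fold change 2.91 ± 0.65, DESeq2 adjusted p = 4.78e-04). Ltc4s, the synthase of leukotriene C4, measured 2.17, 6.45 and 5.90 CPM in the controls and 50.3, 46.5 and 5.13 CPM after succinate. For Ltc4s succinate 3 lay within the control range, and the DESeq2 adjusted p of 0.0115 became 0.196 without succinate 2. Hpgd, which breaks down prostaglandins, was lower in each treated mouse, at 146, 141 and 285 CPM in the controls and 39.8, 36.5 and 115 CPM after succinate (log2 fold change -1.58 ± 0.53, edgeR unadjusted p = 0.0180, DESeq2 adjusted p = 0.128). The higher mean of Ptgds, a prostaglandin D synthase, came from succinate 2, with 0, 193 and 0.0759 CPM in the treated mice, and the gene fell under the count minimum without that library.

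Type 2 cytokines were near the limit of detection. Il25 had 0, 4 and 0 counts in the controls and 41, 46 and 4 after succinate, and Il13 had 0, 0 and 0 counts in the controls and 50, 28 and 4 after succinate. Il5 gave 6, 0 and 0 counts in the controls and 8, 7 and 4 in the treated mice. None of these cytokine genes passed the count minimum, so they have no test, and a count of 0 allows up to 3 counts. Of the 14 genes of cytokines and receptors tested out of 20, 7 had a higher and 7 a lower mean, 4 reached an unadjusted edgeR p under 0.05, all higher (5.28% of all genes), and none passed DESeq2 with or without succinate 2. The IL-25 receptor subunit Il17rb was at 2.02, 2.22 and 2.52 CPM in the controls and 9.35, 7.75 and 3.24 CPM after succinate, and the IL-33 receptor Il1rl1 at 12.1, 8.54 and 6.32 CPM in the controls and 17.99, 20.8 and 13.6 CPM after succinate, without overlap in either. Together with the lymphoid transcription factor Gata3 and the IL-9 receptor Il9r they were the 4, with log2 fold changes of 1.59, 0.96, 1.66 and 1.95. Their DESeq2 adjusted p-values were 0.0594, 0.271, 0.214 and 0.304.

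Genes of the Gsdmc cluster on chromosome 15 were higher in every treated mouse. Gasdermins are proteins whose cleaved forms make pores in membranes, and the Gsdmc members are products of intestinal epithelium. Gsdmc2 stood at 63.4, 34.6 and 34.3 CPM in the controls and 1208, 771 and 231 CPM after succinate. Gsdmc4 was at 101, 57.2 and 61.3 CPM in the controls and 1275, 762 and 389.8 CPM after succinate. Gsdmc3 was at 31.7, 18.1 and 22.3 CPM in the controls and 423, 242 and 144 CPM after succinate. In each case succinate 1 was the highest and succinate 3 the lowest of the treated mice, and all lay above the controls. The log2 fold changes were 4.06 ± 0.66, 3.47 ± 0.52 and 3.49 ± 0.47 (DESeq2 adjusted p = 7.24e-10, 4.49e-10 and 3.98e-11). Gsdmc and Gsdmcl2, at lower levels, differed by 3.27 ± 0.62 and 3.81 ± 0.54 (log2), and all 5 passed DESeq2 with and without succinate 2. As deposited, on GRCm39, Gsdmc2 lies at chr15:63696195-63717026, Gsdmc3 at chr15:63729573-63750407 and Gsdmc4 at chr15:63763113-63784146. These paralogs are near copies of each other and can share reads, so the split between them is uncertain. Over the whole list of gasdermins and inflammatory caspases, with Gsdmc, Gsdmc2, Gsdmc3 and Gsdmc4 among the 18 tested, 8 had a higher and 10 a lower mean, and the median was -0.55 (-0.31 without succinate 2). Casp4, the sensor caspase for cytosolic lipopolysaccharide, was lower in each treated mouse, at 40.5, 44.5 and 27.6 CPM in the controls and 6.36, 6.87 and 18.4 CPM after succinate (log2 fold change -1.83 ± 0.46, DESeq2 adjusted p = 0.0180, and 0.148 without succinate 2). Casp1, Gsdmd and Il18, parts of the classical inflammasome pathway, had log2 fold changes of -0.94, -0.70 and -0.75, each at an unadjusted edgeR p under 0.05 but not past DESeq2.

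Among goblet cell products, the gut resistin Retnlb stood apart. It was nearly absent from the controls, at 0.190, 0.529 and 0.449 CPM, and reached 119.8, 88.9 and 0.885 CPM after succinate, so succinate 3 was barely above the controls (log2 fold change 7.48 ± 1.59, DESeq2 adjusted p = 6.44e-05). Retnla, a related product, was at 0, 0.233 and 1.94 CPM in the controls and 42.3, 23.8 and 1.80 CPM after succinate, with succinate 3 inside the control range. Over the 35 goblet genes 6 were higher (5.28% of all genes) and 1 lower (2.49%) at an unadjusted edgeR p under 0.05. Only Retnlb passed DESeq2, in both fits (1.12% of all genes were called higher, and 0.578% without succinate 2). The median log2 fold change was 0.31 (0.57 without succinate 2). By library the median difference was 0.82, 0.11 and -0.22 in succinate 1, 2 and 3. Clca1, a protease of mucus, was higher by 1.04 ± 0.42 (log2, edgeR unadjusted p = 0.0386), and Spink4 was at 373, 916 and 499.97 CPM in the controls and 6126, 2991 and 377 CPM after succinate. Zg16, a lectin that binds Gram-positive bacteria, was lower, at 4775, 5898 and 5869 CPM in the controls and 2804, 1419.9 and 2933 CPM after succinate (log2 fold change -1.21 ± 0.43, DESeq2 adjusted p = 0.0579). Muc2, the main mucin, overlapped between the groups, at 1465, 2036 and 2816 CPM in the controls and 2977, 2197 and 1843 CPM after succinate (log2 fold change 0.15 ± 0.40).

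The small proline-rich genes Sprr2a1, Sprr2a2, Sprr2a3 and Sprr2b, which encode structural proteins of epithelial barriers, were higher in all treated mice. Of 16 members of the family 6 were tested, and these 4 passed DESeq2 with succinate 2 (1.12% of all genes) and without it (0.578%). The other two were Sprr2k, which was low and overlapped at 0.674, 0 and 0 CPM in the controls and 0.599, 3.26 and 0.733 CPM after succinate, and Sprr1a, with a log2 fold change of -0.62 ± 0.50. Sprr2a3 stood at 178, 137 and 140.3 CPM in the controls and 2477, 1389 and 491 CPM after succinate (log2 fold change 3.26 ± 0.60, DESeq2 adjusted p = 4.95e-07). Sprr2a1 was at 3542, 3212 and 2964 CPM in the controls and 17559, 10305 and 5667 CPM after succinate (log2 fold change 1.79 ± 0.51, DESeq2 adjusted p = 0.00502), and Sprr2a2 differed by 1.80 ± 0.51 and Sprr2b by 1.82 ± 0.42 (log2). Sprr2a1 and Sprr2a2 are near copies and can share reads, so their separate values are uncertain.

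Since IL-13 acts through STAT6, promoters of genes that differed were searched for the STAT6 motif, which is TTC and GAA with any 4 bases between them, for the motif TTCNNNGAA of other STATs, where 3 bases lie between, and for the POU octamer ATGCAAAT, on both strands. The windows, RefSeq promoters on GRCm38.p6, ran from 250 bases before to 50 after each start. Those of Sucnr1, Sprr2a1 and Sprr2a3 are shown since they hold matches, in capitals, and belong to genes with higher levels after succinate. Sucnr1 lies at chr3:60081619-60081918, Sprr2a1 at chr3:92215585-92215884 and Sprr2a3 at chr3:92285054-92285353, all on the plus strand.
Sucnr1: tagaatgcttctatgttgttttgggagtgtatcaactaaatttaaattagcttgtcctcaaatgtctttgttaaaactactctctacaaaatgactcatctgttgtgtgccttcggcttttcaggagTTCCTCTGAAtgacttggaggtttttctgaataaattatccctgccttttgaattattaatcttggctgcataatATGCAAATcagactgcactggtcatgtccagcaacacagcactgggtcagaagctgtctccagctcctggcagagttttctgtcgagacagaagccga
Sprr2a1: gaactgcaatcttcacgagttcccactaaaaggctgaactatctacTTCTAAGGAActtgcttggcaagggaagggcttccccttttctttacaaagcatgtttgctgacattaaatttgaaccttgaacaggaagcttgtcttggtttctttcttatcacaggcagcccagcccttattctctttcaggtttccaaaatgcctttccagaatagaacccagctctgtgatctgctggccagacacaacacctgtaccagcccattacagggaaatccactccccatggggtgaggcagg
Sprr2a3: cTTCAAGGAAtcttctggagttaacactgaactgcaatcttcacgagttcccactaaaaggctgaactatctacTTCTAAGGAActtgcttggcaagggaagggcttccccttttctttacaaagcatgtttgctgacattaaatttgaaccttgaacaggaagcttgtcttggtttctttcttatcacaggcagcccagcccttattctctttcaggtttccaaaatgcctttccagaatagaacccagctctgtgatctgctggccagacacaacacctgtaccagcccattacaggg
In Sucnr1 TTCCTCTGAA began at -123 and the octamer at -48 from the start. In Sprr2a1 TTCTAAGGAA began at -204, and the Sprr2a2 window was the same at 300 of 300 positions. In Sprr2a3 the same 10 letters began at -176, with TTCAAGGAA at -249. Neither window of Pla2g4c held any of the 3 motifs. The STAT6 motif was found in 6.95% of all 32851 promoters, in 20 of the 151 promoters (13.2%) that matched the genes DESeq2 called higher and in 4 of the 43 (9.3%) of the genes called lower. The shares for TTCNNNGAA were 8.3%, 6.62% and 11.6% in the same order. For ATGCAAAT they were 1.74% of all promoters and 4.64% of those of the genes called higher, with 0 of 43 for the genes called lower. These shares count promoters and not genes, and 128 of the 209 gene names called higher had a promoter in the set. Near copies such as the windows of Sprr2a1 and Sprr2a2 were counted separately. A match describes the letters of a window and does not show that a factor binds there.

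Products of Paneth and other secretory cells also differed. Mptx1, a pentraxin of Paneth cells, stood at 3.31, 2.28 and 3.01 CPM in the controls and 246, 135 and 18.7 CPM after succinate (log2 fold change 5.54 ± 0.89, DESeq2 adjusted p = 5.94e-12). Ang4, a microbicidal angiogenin, was at 335, 642 and 360.2 CPM in the controls and 5304, 2264 and 776 CPM after succinate (log2 fold change 2.64 ± 0.71, DESeq2 adjusted p = 0.00242). The lipase relative Pnliprp2 was at 62.8, 82.8 and 68.95 CPM in the controls and 2062, 592 and 157 CPM after succinate (log2 fold change 3.71 ± 0.87), and the colipase gene Clps at 66.01, 109 and 76.6 CPM in the controls and 2005, 971 and 83.3 CPM after succinate. Succinate 1 was the highest and succinate 3 the lowest treated mouse for all 4 genes, and for Clps succinate 3 was within the control range, and the DESeq2 adjusted p of 7.03e-04 became 0.348 without succinate 2. Of the 30 Paneth genes tested, these 4 passed DESeq2 (1.12% of all genes), all but Clps also without succinate 2 (0.578%). A higher mean was seen in 18 of 30, near the share of 52.3% over all genes, and the median was 0.41 (0.51 without succinate 2). By library the median difference from the control mean was 1.25, -0.10 and -0.67 in succinate 1, 2 and 3, above 0 in succinate 1 only. Lyz1, the Paneth lysozyme, was not among them, at 4847, 8251 and 5557 CPM in the controls and 4470.0, 1579 and 3448 CPM after succinate (log2 fold change -0.97 ± 0.50, edgeR unadjusted p = 0.0891). Genes of the pancreas, another source of Clps and Pnliprp2, summed to between 5.06 and 5.79 CPM in the controls and to 10.2, 6.14 and 3.85 CPM after succinate, and their part in these values was not tested.

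Genes of the Reg family and other genes that IL-22 can control went in both directions. Reg3g, a lectin that kills Gram-positive bacteria, was lower in every treated mouse, at 2604, 5161 and 1815 CPM in the controls and 147, 59.001 and 425 CPM after succinate (log2 fold change -3.92 ± 0.82, edgeR adjusted p = 0.379, DESeq2 adjusted p = 1.58e-06). Its relative Reg3b was at 5316, 10187 and 2963 CPM in the controls and 148, 86.4 and 823 CPM after succinate (log2 fold change -4.13 ± 0.99, DESeq2 adjusted p = 2.15e-05). Both passed DESeq2 without succinate 2 as well. Reg4, a product of enteroendocrine and deep crypt secretory cells, was higher instead, at 36.1, 46.8 and 62.7 CPM in the controls and 2897, 1228 and 103 CPM after succinate (log2 fold change 4.86 ± 1.08, DESeq2 adjusted p = 7.29e-07). Fut2, which fucosylates the epithelial surface, was at 5.67, 4.65 and 2.54 CPM in the controls and 67.1, 60.1 and 16.96 CPM after succinate (log2 fold change 3.48 ± 0.58, DESeq2 adjusted p = 1.44e-07). The hydrogen peroxide producing oxidase Duox2 was at 318, 104 and 66.8 CPM in the controls and 730.2, 557 and 795 CPM after succinate. Its maturation factor Duoxa2 was at 215, 146 and 39.2 CPM in the controls and 1258, 1062 and 543 CPM after succinate. Both passed DESeq2 (adjusted p = 0.0189 and 2.97e-04), Duox2 only with succinate 2 (adjusted p = 0.0617 without it). Nos2, the inducible nitric oxide synthase, was lower, at 194, 117 and 70.4 CPM in the controls and 3.29, 4.58 and 35.1 CPM after succinate (log2 fold change -3.15 ± 0.94, DESeq2 adjusted p = 0.00799, and 0.0982 without succinate 2). Of the 16 genes tested on this list 4 were higher (1.12% of all genes) and 3 lower (0.249%) by DESeq2, 5 of these 7 also without succinate 2 (0.73%). The median was -0.14 (-0.25 without succinate 2).

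Mast cell genes and the tested genes of the eosinophil list were higher in succinate 1 and 2. Mcpt1, a protease of mucosal mast cells, stood at 5.42, 6.77 and 7.95 CPM in the controls and 107, 82.3 and 5.23 CPM after succinate. Mcpt2 was at 2.23, 1.73 and 1.71 CPM in the controls and 15.2, 13.2 and 1.01 CPM after succinate. In both genes succinate 3 was under every control. The log2 fold change of Mcpt1 was 3.27 ± 0.91 (DESeq2 adjusted p = 0.00314, and 0.0767 without succinate 2). All 10 mast cell genes tested of 16 had a higher mean, 7 at an unadjusted edgeR p under 0.05 (5.28% of all genes). Without succinate 2, 3 of 9 reached it (2.75% of all genes). These genes had a median log2 fold change of 2.35 (2.02 without succinate 2). Mcpt1 was the only one to pass DESeq2 (1.12% of all genes were called higher), and none did without succinate 2. By library their median difference was 2.56 and 2.76 in succinate 1 and 2 but 0.15 in succinate 3. The mast cell tryptase Tpsb2 was low but did not overlap, at 0.274, 0.211 and 0.235 CPM in the controls and 1.43, 1.69 and 0.531 CPM after succinate. Ccl24, an eosinophil attractant, was at 0.738, 0.994 and 0.449 CPM in the controls and 21.3, 8.47 and 1.01 CPM after succinate (log2 fold change 3.81 ± 0.98, DESeq2 adjusted p = 7.99e-04). All 5 genes tested of the 12 on the eosinophil list had a higher mean, with a median of 2.17 (2.32 without succinate 2). These 5 include the attractants Ccl24 and Ccl11, and Siglecf, which is on the tuft cell list too. Under the count minimum, Epx had 0, 8 and 6 counts in the controls and 0, 0 and 3 after succinate. Ccr3 had 0, 0 and 7 counts in the controls and 14, 15 and 7 after succinate, and Prg3, Ear1 and Ear6 had 0 in every library.

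Genes of T cells and intraepithelial lymphocytes had lower means, while most B cell genes had higher ones. None of the 18 T cell and intraepithelial lymphocyte genes tested had a higher mean, and 9 reached an unadjusted edgeR p under 0.05 (2.49% of all genes did so in this direction). DESeq2 called 3 of them, all lower (0.249% of all genes), Gzma and Ccl5 among them. Without succinate 2 it called 1 (0.151% of all genes), which was neither Gzma nor Ccl5. The median log2 fold change was -1.03, and -0.74 without succinate 2. Gzma, a granule protease of cytotoxic cells, was at 104, 173 and 67.1 CPM in the controls and 35.5, 24.3 and 41.8 CPM after succinate (log2 fold change -1.76 ± 0.40, DESeq2 adjusted p = 0.00535, and 0.0689 without succinate 2). The chemokine Ccl5 was at 26.5, 52.4 and 23.2 CPM in the controls and 10.6, 11.8 and 12.9 CPM after succinate (log2 fold change -1.54 ± 0.35, DESeq2 adjusted p = 0.0139, and 0.0777 without succinate 2). The chemokine Xcl1 had 93, 65 and 51 counts in the controls and 5, 7 and 6 after succinate, so it met the count minimum through the controls alone and its values are given with no test. It is nevertheless counted in the 18, in the 9 and in the medians of this list, which are a description only. Cd3d, a subunit of the T cell receptor complex, differed by -1.56 ± 0.47 (log2). Of 23 interferon-stimulated genes, 7 were lower (2.49% of all genes) and 1 higher (5.28%) at an unadjusted edgeR p under 0.05, and the median was -0.47 (-0.60 without succinate 2). The only DESeq2 call among them, in both fits, was Igtp (0.249% of all genes were called lower, and 0.151% without succinate 2). Igtp, a GTPase of cell-autonomous defence, was at 51.7, 81.1 and 34.4 CPM in the controls and 14.2, 16.2 and 21.3 CPM after succinate (log2 fold change -1.69 ± 0.36, DESeq2 adjusted p = 0.00384). Ubd, a ubiquitin-like protein, was at 36.5, 88.7 and 12.8 CPM in the controls and 1.31, 1.44 and 5.76 CPM after succinate (log2 fold change -4.01 ± 0.88, DESeq2 adjusted p = 2.19e-05), and its controls themselves spread widely. Of the 9 MHC class II genes 7 had a lower mean, with a median of -0.72 (-0.54 without succinate 2), among them H2-Aa at 965, 1138 and 618 CPM in the controls and 372, 274 and 529 CPM after succinate (log2 fold change -1.21 ± 0.39, DESeq2 adjusted p = 0.0893), while H2-Oa and H2-Ob, the subunits of the B cell chaperone H2-O, differed by 1.25 and 1.23 (log2). Of 21 B cell follicle and plasma cell genes tested 14 had a higher mean, 5 were higher (5.28% of all genes) and 1 lower (2.49%) at an unadjusted edgeR p under 0.05, and the median was 0.99. Without succinate 2, 2 of 20 were higher at that p (2.75% of all genes) and none lower, and the median was 0.47. DESeq2 called 2 of them, both higher (1.12% of all genes), Ighm and Spib, a transcription factor that is on the tuft cell list too. Only Spib was called without succinate 2 (0.578% of all genes were called higher). The B cell gene Ms4a1 differed by 2.01 ± 0.81 (log2) and the immunoglobulin chain Ighm by 1.64 ± 0.35 (log2, DESeq2 adjusted p = 0.00418, and 0.0600 without succinate 2), while Jchain of plasma cells differed by -0.84 ± 0.32. How much lymphoid tissue each piece held was not measured.

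Several other genes that were lower belonged to no list. Upp1, a uridine phosphorylase, stood at 196, 266 and 151 CPM in the controls and 52.3, 35.7 and 68.1 CPM after succinate (log2 fold change -1.97 ± 0.35, DESeq2 adjusted p = 4.35e-05). Prss30, a serine protease, differed by -1.44 ± 0.29 (log2), and Cd177 and Sytl3 by -1.83 ± 0.37 and -1.44 ± 0.30 (log2), and all 4 passed DESeq2 with and without succinate 2. Igkv4-72, an immunoglobulin variable segment whose reads can be shared with other segments, was at 23.1, 20.1 and 20.2 CPM in the controls and 3.85, 5.30 and 4.40 CPM after succinate (log2 fold change -2.23 ± 0.26). Dync1i1, a dynein intermediate chain, had 23, 23 and 12 counts in the controls and 0 in every treated mouse, where a count of 0 allows up to 3 counts.

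Most absorptive enterocyte genes had lower means, mainly in succinate 1 and 2. All 9 general markers of intestinal epithelium had lower means too, with a median of -0.70 (-0.44 without succinate 2) and sums of 23614, 18813 and 21191 CPM in the controls and 14482, 9022 and 17499 CPM after succinate. All 15 brush border digestion genes tested had a lower mean, 5 did not overlap (6.66% of all genes did so in this direction), 3 reached an unadjusted edgeR p under 0.05 (2.49% of all genes) and none passed DESeq2 with or without succinate 2. The edgeR count for this list depended on succinate 3: it was 0 over the 6 libraries and 8, all lower, without that library (1.71% of all genes), which lay nearest to the controls for these genes, so the second count is a description only. The median was -1.05 over the 6 libraries and -0.76 without succinate 2, and by library -1.64, -1.95 and -0.12 in succinate 1, 2 and 3. The aminopeptidase Anpep stood at 10046, 8638 and 10097 CPM in the controls and 2217, 1644 and 7827 CPM after succinate (log2 fold change -1.30 ± 0.64, edgeR unadjusted p = 0.0788). The meprin Mep1b was at 1287, 1226 and 1224 CPM in the controls and 398, 315 and 885 CPM after succinate, and the glucosidase Mgam at 1085, 1138 and 1308 CPM in the controls and 491, 361 and 851 CPM after succinate. Of 22 nutrient transport genes 19 had a lower mean, 8 at an unadjusted edgeR p under 0.05 (2.49% of all genes), and the median was -0.84 (-0.48 without succinate 2). Slc13a2, a transporter that carries succinate and other dicarboxylates into the cell, belongs to the succinate handling list below. It was at 259, 235 and 337 CPM in the controls and 13.2, 7.50 and 154 CPM after succinate. Every treated mouse was under every control, yet the spread among them was wide (log2 fold change -2.25 ± 1.04, edgeR unadjusted p = 0.0637, DESeq2 adjusted p = 0.256). The bile acid transporter Slc10a2 differed by -2.12 ± 0.74 and the iron exporter gene Slc40a1 by -1.06 ± 0.29 (log2), and Slc40a1 passed DESeq2 only without succinate 2 (adjusted p = 0.0174). The glucose transporter Slc5a1 was at 1001, 1030.0 and 1269 CPM in the controls and 641, 455 and 995 CPM after succinate. Of 24 lipid absorption genes 18 had a lower and 6 a higher mean, 2 were lower (2.49% of all genes) and 1 higher (5.28%) at an unadjusted edgeR p under 0.05, none passed DESeq2 in either fit, and the median was -0.47 (-0.35 without succinate 2). Among the fatty acid binding proteins Fabp2 differed by -1.99 ± 0.72 but Fabp1 by 0.73 ± 0.36 (log2), and the apolipoprotein gene Apoa4 differed by 0.85 ± 0.47. Angptl4, an inhibitor of lipoprotein lipase, was at 81.7, 121 and 95.6 CPM in the controls and 10.96, 19.6 and 40.3 CPM after succinate (log2 fold change -2.07 ± 0.47, DESeq2 adjusted p = 0.00342, and 0.0505 without succinate 2).

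Genes that handle succinate, enzymes and transporters together, did not show a common direction. Of the 18 tested, 11 had a higher and 7 a lower mean, none reached an unadjusted edgeR p under 0.05, and the median was 0.14. Without succinate 2, 9 had a higher mean and the median was -4.05e-04. The lowest log2 fold change among the 18 was -2.25, that of the transporter Slc13a2 described above. Sdha, the catalytic subunit of succinate dehydrogenase, was at 370.2, 316 and 317 CPM in the controls and 325, 498 and 365 CPM after succinate, and its highest value was that of succinate 2. Ptk6, the tyrosine kinase disrupted in other mice of the series, was lower in each treated WT mouse, at 46.98, 34.6 and 26.2 CPM in the controls and 9.44, 8.91 and 19.9 CPM after succinate (log2 fold change -1.49 ± 0.40, edgeR unadjusted p = 0.00579, DESeq2 adjusted p = 0.0488). Without succinate 2 the log2 fold change was -1.29 and the DESeq2 adjusted p 0.292. The proliferation marker Mki67 overlapped, at 63.2, 90.3 and 55.6 CPM in the controls and 103, 47.3 and 67.9 CPM after succinate (log2 fold change 0.06 ± 0.35). None of the 26 cell cycle genes reached an unadjusted edgeR p under 0.05, with a median of -0.18, and 0.02 without succinate 2.

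**Figure D5:**
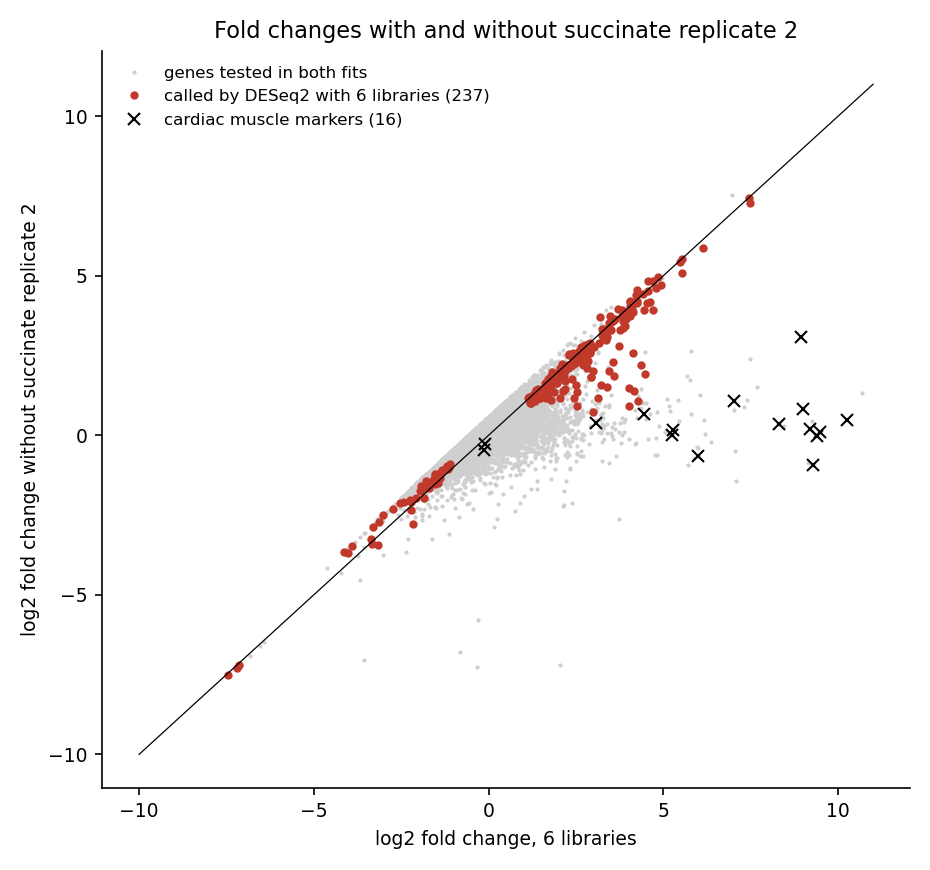
Log2 fold change of each tested gene over all 6 libraries against that without succinate 2. Of the 258 genes called by DESeq2 over the 6 libraries 237 could be tested in both fits and are shown, and each of these lies on the same side of 0 in both, some of them off the diagonal (Nebl at 4.48 and 1.93), while cardiac marker genes lie far from it, with a median of 8.31 over 6 libraries and 0.19 without succinate 2.

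Structural RNAs differed as well. Rn7sk, the noncoding RNA of the 7SK particle, was at 1.83, 2.71 and 1.32 CPM in the controls and 14.7, 46.9 and 75.95 CPM after succinate, and the signal recognition particle RNAs Rn7s1 and Rn7s2, near copies whose reads can be shared, differed by 4.24 ± 0.61 and 4.23 ± 0.60 (log2). Lars2, a mitochondrial leucyl-tRNA synthetase, was at 67.7, 113 and 66.05 CPM in the controls and 568, 1896 and 1195 CPM after succinate (log2 fold change 3.89 ± 0.54). These values moved with the 18S share given above, and the part of RNA composition in them was not tested. In WT males the log2 fold changes of Rn7sk and Lars2 were -5.03 and -4.14, but they rested on WT male control 1, in which Rn7sk was at 1879 CPM, against 27.4 and 1.54 CPM in the other male controls and 1.78, 8.53 and 48.2 CPM in the treated males. Lars2 was at 25530.0, 561 and 75.3 CPM in the male controls and 40.3, 196 and 1248 CPM in the treated males. Without WT male control 1 the difference between the female and male effects went from 9.56 to 4.15 for Rn7sk and from 8.02 to 3.28 for Lars2 (log2).

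The same treatment in other mice of the series gave a measure of how particular these values are to WT females. The test of the difference between the succinate effect in WT females and in WT males called 0 of 20415 genes by edgeR, with 1077 at an unadjusted p under 0.05 (5.28%), a smallest adjusted p of 0.908, and 10 calls by DESeq2 (0.049%). Between WT and Ptk6-/- females edgeR called 0 of 20531, with 1327 at an unadjusted p under 0.05 (6.46%), a smallest adjusted p of 0.752, and 61 calls by DESeq2 (0.297%). Pla2g4c differed by 7.45 in WT females, 6.88 in WT males and 7.22 in Ptk6-/- females (log2). Dclk1 differed by 1.99, 0.73 and 2.67, and the female minus male difference of 1.26 had an unadjusted edgeR p of 0.0225. Gsdmc2 differed by 4.06, 1.99 and 4.35 in the same order, with a sex difference of 2.07 (edgeR unadjusted p = 0.0177). The median over tuft identity genes was 1.97, 0.83 and 2.29. Reg3g and Reg3b differed by -3.92 and -4.13 in WT females and by -4.52 and -3.96 in Ptk6-/- females, while in WT males the values were -0.53 and -0.17 (unadjusted edgeR p of the sex difference 0.00273 and 0.00257). Gzma differed by -1.76 in WT females, -0.07 in WT males and -0.28 in Ptk6-/- females, with an unadjusted edgeR p of 0.00776 for sex and 0.0628 for genotype. Over the 18 T cell and intraepithelial lymphocyte genes, Gzma and Xcl1 included, the median in Ptk6-/- females was -1.06, against -1.03 in WT females and -0.17 in WT males. Of these 18 genes 5 reached an unadjusted edgeR p under 0.05 for sex (5.28% of all genes) and 1 for genotype (6.46%). None of these differences passed adjustment over all genes by edgeR.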

How the data were processed

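Total RNA of the distal jejunum was sequenced from stranded poly(A) libraries as paired-end reads. The authors trimmed reads with Cutadapt, checked them with FastQC, aligned them with HISAT2 and assembled transcripts with StringTie and gffcompare, and the submitters' processing notes name GRCm39. The count values, as deposited, are whole reads per gene without normalization, and the program that counted them is not given in the sources used here. The authors' FPKM table, made by StringTie and ballgown, gave gene names, positions and an alternative here.

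Groups came from the sample titles. The tools were edgeR 4.0.16 (TMM, quasi-likelihood test), limma 3.58.1 and DESeq2 1.42.0 (Wald test) under R 4.3.3. A gene entered a fit if 3 or more of its libraries held 10 counts or more. In edgeR and limma, p-values were adjusted over all genes tested by the Benjamini-Hochberg method. DESeq2 kept its default filters on low mean counts and on outlier counts, so its adjustment covered only the genes these left. A gene was called at an adjusted p under 0.05 and a fold change of at least 2, and a gene without an adjusted p counted as not called. CPM values used TMM library sizes. List levels by library are medians of log2(CPM + 0.1) minus the control mean. Succinate 2 was left out in a fit of its own (18505 genes). Differences between mice were interaction terms over 12 libraries. Total counts per library were 34663680 to 49672583, 3 counts were worth 0.0632 to 0.0942 TMM-normalised CPM by library, and such limits cover counting error only.

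Genes were named by rule: up to 12 in each direction with the smallest p, no overlap between groups and at least a 2-fold change, with and without succinate 2; up to 4 of each list by p; the gasdermin, eicosanoid and cytokine lists; and Ptk6, Dclk1, Sucnr1, Il25, Il13, Irag2, Muc2, Lyz1 and Mki67. Sh2d6, Sh2d7, Reg3b, Nebl, Pou2f3, Duox2, Nos2, Cd3d, Gng13, Smpx, H2-Ob, Spink4, Ms4a1, Clca1, Slc5a1, Sdha, Fabp1, Apoa4, Sprr1a, Sprr2k and Spib were added outside this rule with their values in view. The libraries, gene lists and tests were chosen with earlier results of these data known. The model fits were tested on simulated counts with a fixed spread, and the list counts, promoter search and figures were not. Alternatives were other size factors, filters, tests, a replicate block, a length offset, a fit of all 24 libraries, and leaving out each library, cardiac and skeletal marker genes or structural RNA genes. Values of some genes in the lists are not reported here.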

Additional observations from a re-analysis of the deposited data

Results flagged for a closer look

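Dync1i1, a dynein intermediate chain, went in opposite directions in every mouse of 2 groups. In WT females it had 23, 23 and 12 counts in the controls and 0 in each treated mouse, and in WT males it was at 0, 0.280 and 0.267 CPM in the controls and 0.671, 0.382 and 1.17 CPM after succinate. The log2 fold change in WT males was 1.82. The gene was picked for these opposite directions and passed the count minimum in WT females through the controls alone, so its values are a description with no test.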

How the results depend on the processing

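The count of genes called was the value most sensitive to the processing. Over the 6 libraries edgeR called 0, and it called 1 with at least 10 counts in every library, 87 when all 24 libraries shared an estimate of the spread, and 0 to 597 when each library was left out in turn, with 597 without succinate 3. DESeq2 called 258, voom with quality weights 37 and limma on log2(FPKM + 1) 1. DESeq2's 258 became 161 without control 2, 147 without control 3, 135 without succinate 2 and 2137 without succinate 3. Without succinate 2, edgeR called 0 and DESeq2 135, and leaving out each further library gave 0 to 337, with 11 without succinate 1 and 337 without succinate 3, where the lone treated mouse was assumed to vary like the controls. For the sex difference DESeq2 called 10 against 0 by edgeR, which called 0 to 59 with a library left out, 59 without WT female succinate 3. For the genotype difference DESeq2 called 61, against 0 by edgeR. The cause of these shifts was not tested. DESeq2's size factors, no filter on low counts, a length offset, and tests without cardiac and skeletal marker genes or without structural RNA genes and Lars2 (the last chosen after seeing the data) left edgeR's count over the 6 libraries at 0.

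Numbers 1 to 3 are shared by controls and treated mice, but they did not pair them: deviations from the group means of same-numbered libraries correlated at -0.282, 0.136 and 0.107. With the replicate block edgeR called 4 genes, and 2 with a length offset as well, and without succinate 2 it called 4 and 3. Control 3 and succinate 2 correlated best with their own number, and the other 4 libraries did not.

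Directions were stable for nearly all named genes. Over the 6 libraries Mki67 turned from 0.06 to -0.023 with the replicate block and length offset, and with a library left out it ran from -0.27 to 0.29 and Muc2 from -0.057 to 0.43. Without succinate 2, leaving out a further library gave log2 fold changes of -0.19 to 0.50 for Muc2, -0.038 to 0.56 for Mki67, -0.0062 to 4.59 for Clps, -0.36 to 3.999 for Mcpt1, -0.90 to 3.01 for Mcpt2, -0.69 to 1.51 for Smpx, -0.66 to 3.37 for Spink4 and -0.039 to 0.13 for Sdha. Sprr1a, at -0.39 without succinate 2, became 0.16 with the replicate block and 0.21 with a length offset as well, and ran from -0.79 to 0.18 with a further library left out. The negative ends of Clps, Mcpt1, Mcpt2, Smpx and Spink4 came without succinate 1, when succinate 3 alone stood for the treated mice. Il25 and Il13 did not reach the count minimum and have no test at this depth.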

Other observations

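Of 25 endoplasmic reticulum stress genes 21 had a lower mean, with a median log2 fold change of -0.23, and -0.03 without succinate 2. Of 19 enteroendocrine genes 14 had a lower mean, with a median of -0.43 (-0.31 without succinate 2). Sterol synthesis genes had a median of -0.17, secretory lineage and Notch genes 0.06 and stem cell and Wnt genes -0.02, which became -0.058, 0.05 and 0.096 without succinate 2. Of the 29 detoxification genes 24 had a lower mean, with a median of -0.92 that became -0.44 without succinate 2. By library the median difference was -1.004, -1.72 and -0.01 in succinate 1, 2 and 3. None was called by edgeR over the 6 libraries and 12 were without succinate 3 (3.23% of all genes), 11 of them lower (1.71%). Succinate 3 lay nearest to the controls for these genes, so the second count is a description only. Genes of ketogenesis and fatty acid oxidation had a median of 0.48 with succinate 2 and -0.01 without it, the library in which cardiac transcripts were found. Adipocyte markers spread within both groups, at 39.4, 1.97 and 65.3 CPM in the controls and 41.2, 20.3 and 159 CPM after succinate.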
